A study of Mus musculus with 4 samples.

Results

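The response of cells to unfolded protein and to amino acid shortage is described here through 40 genes, measured in mDCT cells. This immortalised mouse line derives from the distal convoluted tubule, a segment of the kidney nephron that aldosterone acts on. The genes were taken from a list by symbol, 1 probe set for each, the brightest by its mean over the arrays among the probe sets annotated with that symbol alone, out of 18193 genes named in this way. They fall into an ATF4 arm of 18 genes and an endoplasmic reticulum (ER) chaperone arm of 22. All cells, the controls included, carried a FLAG-tagged human mineralocorticoid receptor introduced by transient transfection, and they were treated 48 h later. The vehicle group received ethanol for 3 h. The 2 groups given hormone alone received aldosterone for 3 h at 1 nM or 100 nM, and the last received 100 nM aldosterone for 3 h with spironolactone, a receptor antagonist, added at 5 µM 2 h before it. No group received spironolactone without aldosterone. Each group was 1 Affymetrix array from 1 RNA sample, so no difference below can be set against a spread between replicates, and every value describes these libraries.

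When proteins misfold in the ER, the kinase PERK, the nuclease IRE1 and the membrane-bound factor ATF6 start separate signals. PERK slows translation through eIF2, as does the amino acid sensor GCN2, and the factor ATF4 is then made and induces genes for amino acid synthesis, tRNA charging and, under lasting stress, cell death. IRE1 splices the mRNA of Xbp1, and XBP1 and cleaved ATF6 induce ER chaperones, disulphide isomerases and the machinery that removes misfolded proteins. Steroid-sensitive kidney epithelia use this machinery to fold channels, transporters and their regulators. A 3' array reads the summed level of a transcript, not the splicing of Xbp1, the translation of Atf4 or the cleavage of ATF6.

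The promoters of the arms were also compared in sequence. The genes were listed for belonging to these pathways, so an excess of pathway elements describes the list and is no independent result. RefSeq windows of GRCm38.p6, 250 bases before to 50 bases after a transcription start, were matched by symbol for 36 of the 40 genes, 3 of which had more than 1 window. Those of Wars, Atf6, Hyou1 and Manf were not matched. Both strands were searched for the ER stress element ERSE (CCAAT, any 9 bases, CCACG), for ERSE-II (ATTGG, any 1 base, CCACG), for the XBP1 element core TGACGTGG, for the C/EBP-ATF composite element TGATGCAA that ATF4 binds, and for the cAMP response element core TGACGTCA. ERSE was found in 8 of the 19 ER arm genes with a window (42.1%) and in 0 of 17 ATF4 arm genes, beside 0.137% of all 27025 genes in the table and 0.119% of all 32851 windows. The ERSE matches are shown because they mark the most characteristic letters of the arm, in capitals with 10 bases on each side, 5′ to 3′ on the strand of the gene. Calr, Creld2 and the match of Hsp90b1 nearer the start site carry the element in reverse.
Hspa5 (chr2:34772015-34772053, + strand): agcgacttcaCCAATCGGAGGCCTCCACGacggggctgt
Hsp90b1, nearer match (chr10:86705523-86705561, - strand): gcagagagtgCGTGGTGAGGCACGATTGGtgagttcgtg
Hsp90b1, farther match (chr10:86705628-86705666, - strand): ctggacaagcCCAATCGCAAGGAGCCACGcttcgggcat
Calr (chr8:84847065-84847103, - strand): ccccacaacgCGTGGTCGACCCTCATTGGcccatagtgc
Canx (chr11:50325790-50325828, - strand): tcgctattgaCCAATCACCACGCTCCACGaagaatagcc
Dnajc3 (chr14:118937817-118937855, + strand): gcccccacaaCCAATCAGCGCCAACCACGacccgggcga
Creld2 (chr15:88819510-88819548, + strand): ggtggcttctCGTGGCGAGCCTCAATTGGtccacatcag
Pdia6 (chr12:17266481-17266519, + strand): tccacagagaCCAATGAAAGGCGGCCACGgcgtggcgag
Syvn1 (chr19:6046522-6046560, + strand): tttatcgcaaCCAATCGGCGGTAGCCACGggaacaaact

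ERSE-II was found in Dnajb11 and Herpud1, 2 of 19 ER arm genes (10.5%) beside 0.0444% of all genes. The C/EBP-ATF element was found in 3 of 17 ATF4 arm genes (17.6%), Chac1 and Vldlr among them, and in Herpud1, 1 of 19 ER arm genes, beside 1.03% of all genes. Of the 36 genes, Herpud1 alone held an element of each kind, so its whole window is shown, with both matches in capitals, the C/EBP-ATF element first. The matches of Chac1 and Vldlr, both in reverse, follow it.
Herpud1 (chr8:94386179-94386478, + strand): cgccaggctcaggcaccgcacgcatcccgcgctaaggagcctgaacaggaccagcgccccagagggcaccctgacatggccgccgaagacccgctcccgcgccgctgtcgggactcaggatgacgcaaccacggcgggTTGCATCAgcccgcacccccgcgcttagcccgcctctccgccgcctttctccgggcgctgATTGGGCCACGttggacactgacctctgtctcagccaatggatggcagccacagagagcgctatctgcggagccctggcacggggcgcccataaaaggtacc
Chac1 (chr2:119351039-119351066, + strand): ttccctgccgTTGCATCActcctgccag
Vldlr (chr19:27216810-27216837, + strand): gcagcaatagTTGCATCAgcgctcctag

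The cAMP response element core was found in Ppp1r15a, 1 of 36 genes (2.78%) beside 2.03% of all genes, and the XBP1 core in 0 of 36 beside 0.714%. In all, 14 genes held 16 matches, and 0 pairs of matches overlapped. A match is a run of letters, not a measured binding site, and a window without one says nothing about the factor.

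**Figure D1:**
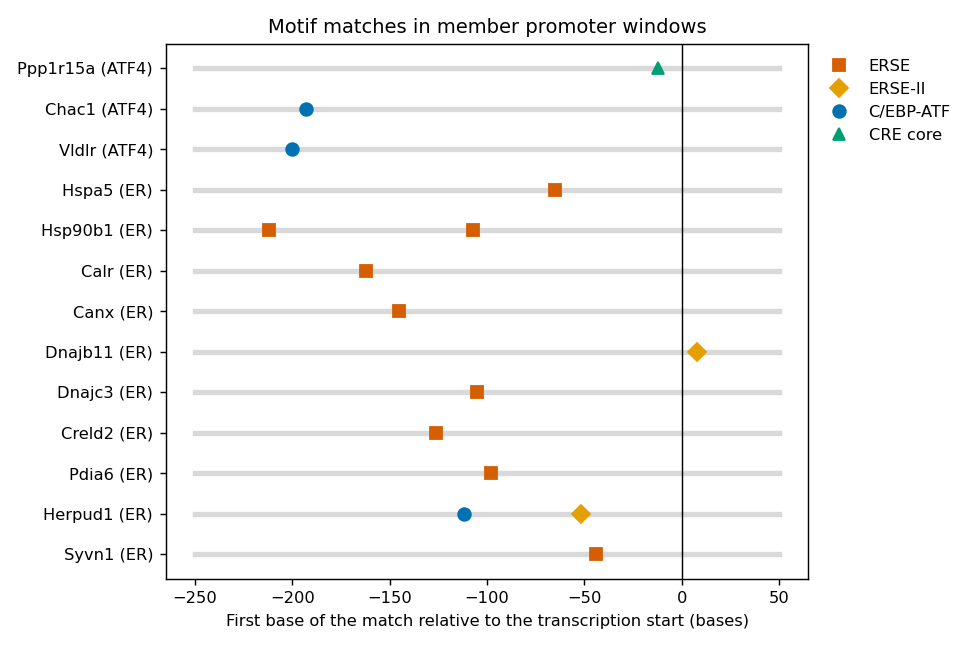
Positions of the motif matches in the promoter windows of 13 of the 14 genes that hold one (rows, with the arm in brackets), as the distance in bases of the first base of the match from the transcription start; grey bars span the windows. The ERSE matches, in orange, lie from 212 to 44 bases before the start and only in ER arm genes, and Herpud1 holds both a C/EBP-ATF and an ERSE-II match.

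All 40 genes had a mean signal at or above the median probe set, a signal of 55.9, which is the filter that 11057 genes passed, and 39 lay at or above the 75th percentile, a signal of 419.8 (6936 genes); Sesn2 was the exception. The labelled cell type was checked against 11 distal convoluted tubule markers, of which 9 had a probe set and 6 passed the filter. Summed signals of the 9 were 7746 to 9132, most of it from Wnk1 (6878 to 8372). Stk39 and Wnk4 also passed, as did Egf (89.1 to 102), Trpm6 (73.1 to 95.4) and Pvalb (38.3 to 91.5), which lay nearer the filter. The defining sodium chloride cotransporter gene Slc12a3 did not pass, with signals from 3.93 to 17.2. Markers of other cells passed as 4 of 4 for proximal tubule (summed signals 685 to 768), 0 of 5 for collecting duct, 0 of 4 for intercalated cells, 0 of 4 for fibroblasts, 1 of 3 for endothelium and 1 of 3 for leukocytes. Whether other cells had a part in the values below was not tested, and in a bulk extract fewer cells of a type and less RNA per cell cannot be told apart. For scale, the hormone-induced gene Sgk1, the serum- and glucocorticoid-regulated kinase, had signals of 801 in ethanol, 935 at 1 nM, 1810.4 at 100 nM and 1424 after spironolactone, a log2 difference of 1.18 between 100 nM and ethanol. Other hormone response genes gave 0.94 (Tsc22d3), 1.19 (Per1) and 0.40 (Fkbp5) for that pair. At 1 nM against ethanol they gave -0.02, -0.04 and 0.52, so the scale differed between such genes.

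Read from the brightest probe sets, a fold of at least 1.5 was reached once among 40 genes and 6 pairs of libraries, by Sesn2. With 1 nM aldosterone 0 of 40 were 1.5-fold higher than in ethanol and 0 lower, where 2.61% and 2.07% of the 11057 genes were. With 100 nM aldosterone the counts were 0 and 0, beside 2.39% and 1.72%. With spironolactone against 100 nM aldosterone alone they were again 0 and 0, beside 1.83% and 2.51%. Against ethanol, the spironolactone library had 0 genes higher and 1 lower, beside 2.17% and 2.03%. The step from 1 nM to 100 nM gave 0 and 0, beside 2.04% and 1.96%, and spironolactone against 1 nM gave 0 and 0, beside 1.75% and 2.66%.

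Bright genes differ less between arrays, so the 6936 genes at or above the 75th percentile are the closer background; this choice was made after seeing the values. In the same order of pairs and directions, the shares of these genes past 1.5-fold were 0.317% and 0.317%, 0.231% and 0.187%, 0.216% and 0.245%, 0.202% and 0.187%, 0.317% and 0.144%, and 0.13% and 0.115%. A count of 0 among 40 genes therefore lies near what such shares give, and nothing about the pathway is read from it. The highest of the 4 signals was a median of 1.08 times the lowest over the members and 1.12 times over the bright genes. On the log2 scale that span was under 0.3219 for 35 of 40 members (87.5%), and for 87.7% of the bright genes and 67.5% of all that passed the filter. By their brightest probe sets the most even members were Hsp90b1, an ER form of the HSP90 chaperone, with 1.02 times, the glycyl-tRNA synthetase Gars with 1.02 times and the ER degradation lectin Edem1 with 1.02 times.

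A smaller difference, of at least 0.3219 on the log2 scale, was reached by 5 members, and Pdia4 lay just under it. At 1 nM against ethanol Sesn2 and Syvn1 were lower by that much and 0 genes higher, beside 7.0% lower and 7.9% higher of all genes that passed the filter and 2.31% and 2.1% of the bright ones. At 100 nM against ethanol Sesn2 and Ern1 were lower and 0 higher, beside 6.48% and 7.07% of all, and 2.02% and 1.74% of the bright genes. Spironolactone against 100 nM gave 0 lower and 0 higher, beside 8.13% and 6.49% of all, and 2.05% and 2.38% of the bright genes. Against ethanol the spironolactone library had Sesn2 and Vldlr lower and 0 higher, beside 7.42% and 6.19% of all, and 1.86% and 1.9% of the bright genes. From 1 nM to 100 nM 0 were lower and Wars was higher, beside 6.6% and 6.57% of all, and 1.85% and 1.86% of the bright genes. Vldlr alone was lower with spironolactone than at 1 nM and 0 were higher, beside 7.6% and 5.79% of all, and 1.3% and 1.57% of the bright genes. A 2-fold difference was reached by 0 members with the brightest probe set in any pair. With spironolactone against ethanol 0.416% of all genes were that much higher and 0.452% lower, but only 1 and 2 of the 6936 bright genes. Over the 6 pairs, 0 to 4 bright genes were that much higher and 1 to 2 lower, so nothing is read from this 0.

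**Figure D2:**
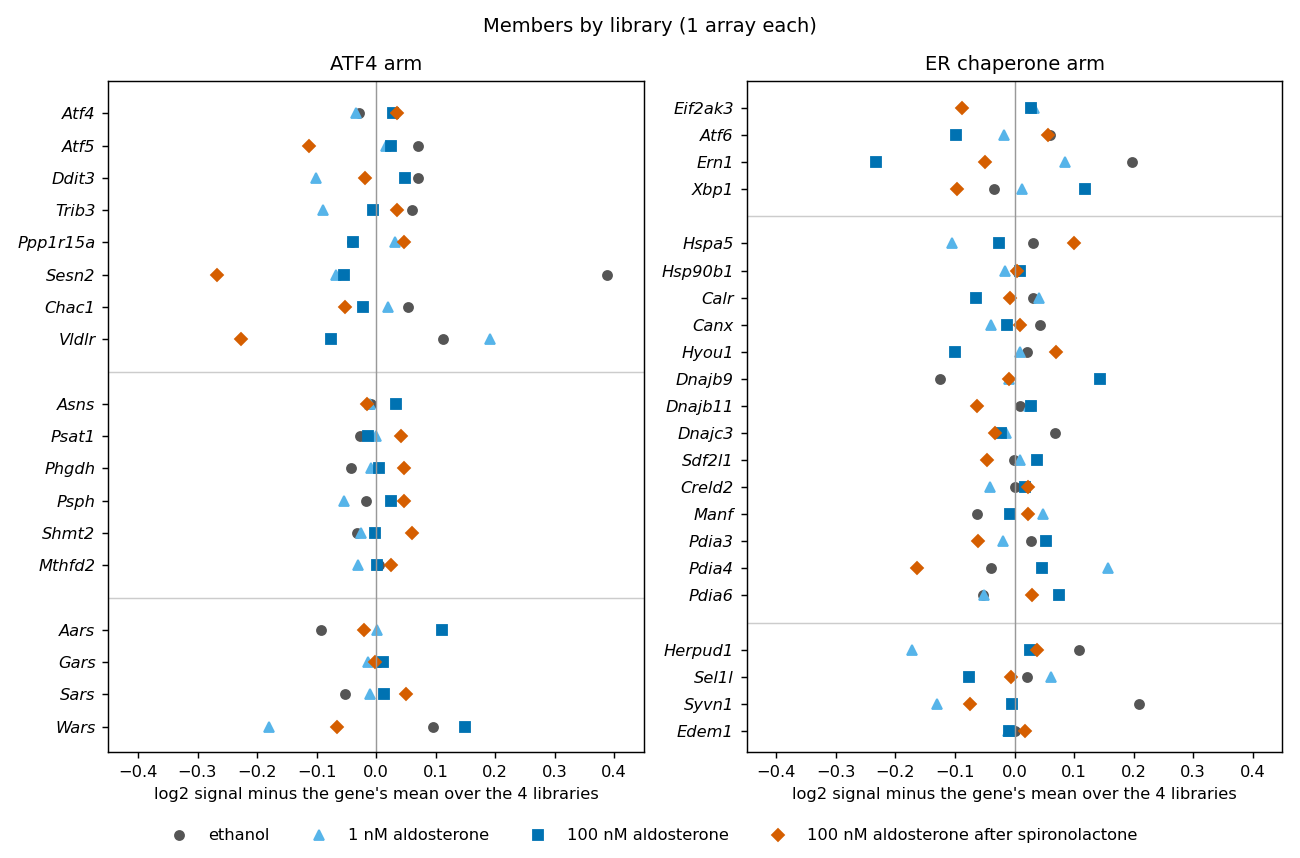
Log2 signal of each gene in each library, less the mean of the gene over the 4 libraries, with the ATF4 arm on the left and the ER chaperone arm on the right; each point is 1 array and grey lines part the roles. Most points lie within 0.1 of the mean of their gene, and Sesn2, Vldlr, Ern1, Wars and Syvn1 are the most spread.

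The ATF4 arm begins with its regulators and their direct targets. Atf4, which encodes the factor itself, had signals of 13432 in ethanol, 13382 at 1 nM, 13971 at 100 nM and 14043 with spironolactone. These lie within 1.05 times of each other, with a log2 difference of 0.06 between 100 nM and ethanol. Ddit3 encodes CHOP, the factor tied to stress-induced cell death, and its signals were 2949 in ethanol, 2619.8 at 1 nM, 2906 at 100 nM and 2774 with spironolactone. The 1 nM library was the lowest, by -0.17 against ethanol, and the difference at 100 nM was -0.02. The other CHOP probe set, which is dimmer, gave -0.61 and 0.02 for the same pairs.

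Trib3, a pseudokinase that dampens ATF4 and AKT signalling, had differences from ethanol of -0.15 at 1 nM, -0.07 at 100 nM and -0.03 with spironolactone. For Chac1, which degrades glutathione, the corresponding values were -0.03, -0.08 and -0.11. Atf5, a factor translated in the same manner as Atf4, had -0.05, -0.05 and -0.18. Ppp1r15a, which encodes the phosphatase subunit GADD34 that ends the translational block, had 0.07, 0.00 and 0.09. All 4 of these genes varied by less than 1.14 times over the libraries.

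Sesn2, which encodes the leucine sensor and stress-induced mTORC1 inhibitor sestrin 2, had signals of 342 in ethanol, 249.6 at 1 nM, 252 at 100 nM and 217 with spironolactone. Ethanol was thus the highest library and spironolactone the lowest, 1.57-fold apart (log2 difference -0.65), with -0.46 at 1 nM and -0.44 at 100 nM. These 3 differences share the ethanol library. The other Sesn2 probe set had signals of 202, 187, 206 and 233 in the same order, with log2 differences from ethanol of -0.11, 0.03 and 0.20. It placed spironolactone highest and not lowest, so the direction of the only 1.5-fold difference depended on the probe set.

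Vldlr, the very low density lipoprotein receptor and a target of ATF4 under ER stress, had signals of 1242 in ethanol, 1313 at 1 nM, 1089.8 at 100 nM and 981 with spironolactone. The spironolactone library was the lowest, by -0.34 against ethanol and -0.42 against 1 nM aldosterone. All 6 Vldlr probe sets passed the filter, and spironolactone was below ethanol in 6 of 6 (from -0.69 to -0.14) and below 1 nM aldosterone in 6 of 6 (from -0.64 to -0.21). Against 100 nM aldosterone it was lower in 5 of 6, with a median of -0.14. Probe sets of a gene are read from the same RNA on the same array, so such counts are no replicates; Vldlr was singled out after its values were seen.

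**Figure D3:**
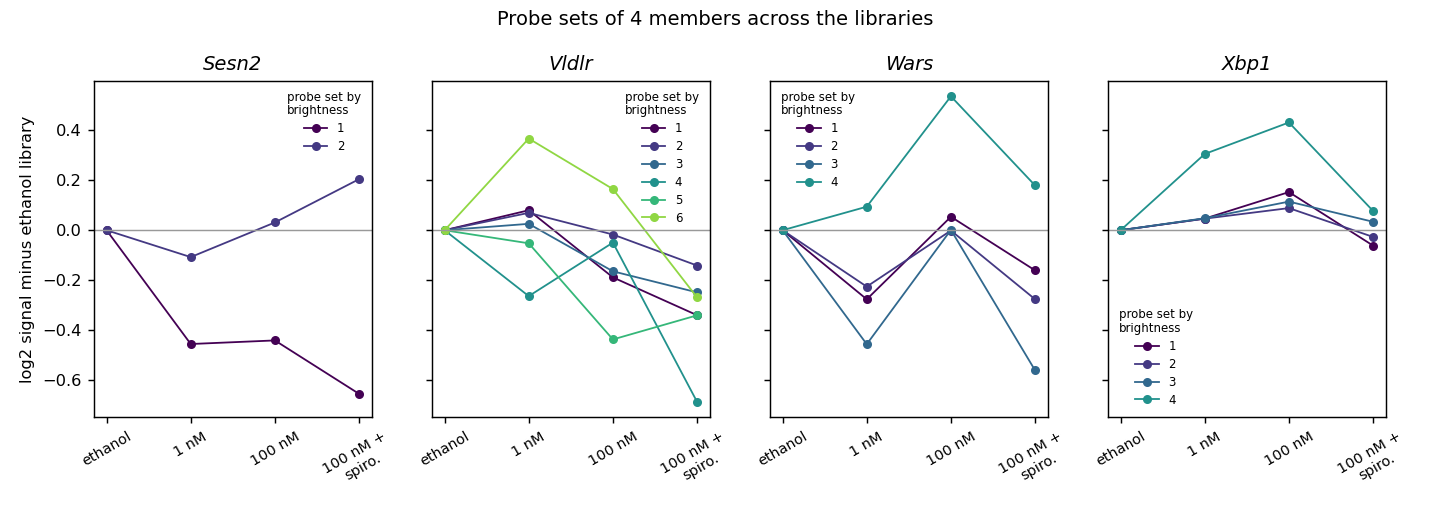
Log2 signal less the ethanol library for each probe set at or above the filter (numbered by brightness; lines join the values of 1 probe set) of Sesn2, Vldlr, Wars and Xbp1, in the 4 libraries. The probe sets of Sesn2 part after spironolactone, at -0.65 and 0.20, while all of those of Vldlr lie below ethanol there and all of those of Xbp1 peak at 100 nM aldosterone.

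The enzymes of amino acid and one-carbon metabolism differed little from ethanol in their brightest probe sets. Asns, asparagine synthetase and a standard readout of ATF4, had signals of 7909 in ethanol, 7896 at 1 nM, 8143 at 100 nM and 7869.7 with spironolactone, all within 1.03 times. The serine synthesis enzymes Phgdh, Psat1 and Psph, which act in that order, differed from ethanol at 100 nM by 0.05, 0.01 and 0.04. With spironolactone they differed by 0.09, 0.07 and 0.06. The mitochondrial folate enzymes Shmt2 and Mthfd2 gave 0.03 and 0.00 at 100 nM and 0.09 and 0.02 with spironolactone. Over the brightest probe sets of the 6 enzymes all differences from ethanol lay between -0.04 and 0.09, and medians were 0.00 at 1 nM, 0.04 at 100 nM and 0.07 with spironolactone. Other probe sets did not all show this. The next Phgdh probe set, nearly as bright, gave -0.04 at 100 nM and -0.01 with spironolactone against ethanol. Of the 4 Phgdh probe sets, 2 lay above ethanol at 100 nM and 3 with spironolactone. The other probe set gave 0.00 and -0.08 for Psat1, -0.02 and -0.05 for Mthfd2, and 0.06 and 0.04 for Asns. Dimmer Shmt2 probe sets disagreed with the brightest and with each other. The dimmest of its 4, with signals of 174 in ethanol, 216 at 1 nM, 377.5 at 100 nM and 377 with spironolactone, gave 1.12 at 100 nM and 1.12 with spironolactone against ethanol. The next dimmest gave -0.54 and -0.04, and the remaining one -0.05 and -0.03.

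Aminoacyl-tRNA synthetases, which charge tRNAs and are induced by ATF4, held the member with the largest difference between 100 nM and 1 nM in the arm. Wars, the tryptophanyl enzyme, had signals of 557 in ethanol, 459.9 at 1 nM, 578 at 100 nM and 498 with spironolactone. The ethanol and 100 nM libraries were high and the other two low, with differences of 0.33 between 100 nM and 1 nM and -0.21 between spironolactone and 100 nM. Its 4 probe sets all showed 100 nM above 1 nM (0.22 to 0.46) and all showed spironolactone below 100 nM (-0.56 to -0.21), while against ethanol 100 nM differed by between 0.00 and 0.54. Wars is also an interferon-induced gene, and its probe sets, like those of Vldlr, were looked at because of its values.

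Aars, the alanyl enzyme, had signals of 5941 in ethanol, 6342.5 at 1 nM, 6841 at 100 nM and 6244 with spironolactone. Here 100 nM was the highest library, by 0.20 over ethanol, but the other Aars probe set gave -0.09 for that pair. Gars and Sars, the glycyl and seryl enzymes, stayed within 1.02 and 1.07 times in their brightest probe sets, with 0.01 and 0.07 between 100 nM and ethanol. The other Sars probe set gave -0.04 for that pair.

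In the ER chaperone arm the sensors come first. Ern1, which encodes IRE1, had signals of 584 in ethanol, 541 at 1 nM, 434 at 100 nM and 492 with spironolactone. The 100 nM library was the lowest, by -0.43 against ethanol, -0.32 against 1 nM and with spironolactone higher by 0.18. The central 95% of the bright genes ran from -0.30 to 0.28 for 100 nM against ethanol, so Ern1 lay outside it. Over all genes that passed the filter it ran from -0.51 to 0.58. Both Ern1 and the dimmer Sesn2, at -0.44 and not among the bright genes, lay inside that wider range. Some genes fall outside such a range by construction, and Ern1 was singled out for being among the lowest members of this pair. Only 1 of the 5 Ern1 probe sets passed the filter, so no other probe set checks its value.

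Xbp1, the transcript that IRE1 splices, went the other way, with signals of 6283.5 in ethanol, 6489.5 at 1 nM, 6985 at 100 nM and 6021 with spironolactone. The 100 nM library was the highest and the spironolactone library the lowest, with differences of 0.15 against ethanol and -0.21 between spironolactone and 100 nM. All 4 probe sets had 100 nM above ethanol (0.09 to 0.43) and spironolactone below 100 nM (-0.35 to -0.08), but the brightest set against ethanol lay inside the central 95% of the bright genes, and both pairs share the 100 nM library.

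Atf6 had signals of 1429.9 in ethanol, 1356 at 1 nM, 1282 at 100 nM and 1426 with spironolactone, with 100 nM lowest at -0.16 against ethanol and spironolactone higher than it by 0.15. Of its other probe sets, the brighter gave -0.19 and 0.17 for these pairs and the dimmer 0.08 and -0.03. Eif2ak3, which encodes PERK, gave 0.01 at 1 nM, 0.00 at 100 nM and -0.12 with spironolactone against ethanol.

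Hspa5, which encodes BiP, the main ER chaperone and the standard marker of ER stress, had signals of 17888 in ethanol, 16285 at 1 nM, 17183 at 100 nM and 18759 with spironolactone. Spironolactone was the highest and 1 nM the lowest library, 1.15 times apart, with differences from ethanol of -0.14 at 1 nM, -0.06 at 100 nM and 0.07 with spironolactone. The other BiP probe sets gave 0.15 and 0.17 at 1 nM, opposite to the brightest, and spironolactone was above ethanol in 3 of 3, by 0.07 to 0.11. Hsp90b1, Calr and Canx, chaperones that fold glycoproteins and other ER clients, differed from ethanol by at most 0.09 in size at either dose and with spironolactone in their brightest probe sets. The next Canx probe set gave 0.30 at 1 nM and 0.29 at 100 nM, opposite in sign to the brightest. The other Hsp90b1 probe set gave -0.22 at 1 nM, -0.03 at 100 nM and -0.24 with spironolactone.

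Hyou1, an ER chaperone of the HSP70 family, had signals of 1432 in ethanol, 1420.1 at 1 nM, 1318 at 100 nM and 1482 with spironolactone. It was lowest at 100 nM, and the step to spironolactone was 0.17; the other probe set at or above the filter gave 0.04. Dnajb9, a BiP co-chaperone that restrains IRE1, had signals of 944 in ethanol, 1024 at 1 nM, 1139 at 100 nM and 1023 with spironolactone. Ethanol was the lowest library and 100 nM the highest, 0.27 apart, the largest positive difference of a member from ethanol at that dose. Dnajb9 had 1 probe set.

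Pdia4, a disulphide isomerase, had signals of 1499 in ethanol, 1719 at 1 nM, 1592 at 100 nM and 1376 with spironolactone. The 1 nM library was the highest, by 0.20 over ethanol, and spironolactone the lowest, by -0.21 against 100 nM and -0.32 against 1 nM. Manf, a secreted protein retained in the ER by BiP, had signals of 5834.5, 6299.6, 6057 and 6186 in ethanol, 1 nM, 100 nM and spironolactone, with 0.11 between 1 nM and ethanol. The brightest probe sets of the other co-chaperones and folding enzymes (Dnajb11, Dnajc3, Sdf2l1, Creld2, Pdia3 and Pdia6) varied by 1.05 to 1.09 times over the libraries. The next Dnajc3 probe set ran from 1478.5 with spironolactone to 1805.5 in ethanol. The dim other probe sets of Pdia3 and Pdia6 ran from 57.1 to 86.8 and from 73.8 to 113.5.

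Of the genes of ER-associated degradation, Syvn1, the ubiquitin ligase HRD1, had signals of 1784 in ethanol, 1410.1 at 1 nM, 1539 at 100 nM and 1465 with spironolactone. Ethanol was the highest library, with differences from it of -0.34, -0.21 and -0.28. The other Syvn1 probe set gave 0.00, 0.13 and -0.09. Herpud1, which brings substrates to that ligase and is induced by both arms of the response, had signals of 3079.5 in ethanol, 2535 at 1 nM, 2908 at 100 nM and 2934 with spironolactone. The 1 nM library was the lowest, at -0.28 against ethanol and 0.20 below 100 nM; the other probe set gave -0.10 and 0.30 for 1 nM against ethanol and 100 nM against 1 nM. Sel1l, the partner of Syvn1, and Edem1 differed from ethanol by -0.10 and -0.01 at 100 nM in their brightest probe sets. Of the 4 Sel1l probe sets at or above the filter, 2 lay above ethanol for that pair and the median was 0.01. The other Edem1 probe set gave -0.05.

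As groups the arms were level. The median of the ATF4 arm was -0.01 at 1 nM and 0.01 at 100 nM against ethanol, and 0.00 for spironolactone against 100 nM, where the medians over all genes that passed the filter were -0.01, 0.00 and 0.00. For the ER chaperone arm the values were -0.01, -0.01 and 0.00. At 100 nM 11 of 18 ATF4 arm genes and 10 of 22 ER arm genes were above ethanol by any amount, and at 1 nM 7 of 18 and 10 of 22 were. Of all 11057 genes 5380 were above ethanol at 100 nM and 5339 at 1 nM. Of the 40 genes, 14 had their lowest signal at 1 nM (35.0%), beside 26.3% of all genes that passed and 28.1% of the bright ones. At 100 nM 5 did (12.5%), beside 25.2% and 26.1%. In ethanol 9 did (22.5%), beside 23.5% and 22.9%, and with spironolactone 12 did, beside 25% and 22.9%. The highest signal lay in ethanol for 11 of the 40, at 1 nM for 6, at 100 nM for 11 and with spironolactone for 12. By library, shares for the highest signal ran from 23.5% to 27.1% of all genes that passed and from 21.8% to 27.9% of the bright ones. By arm, 7 of 18 ATF4 arm genes and 7 of 22 ER arm genes were lowest at 1 nM, and 0 of 18 and 5 of 22 (22.7%) at 100 nM. Such ranks can rest on small differences that other probe sets of a gene need not share, so nothing is read from these counts. The 10 ER arm genes with an ERSE or ERSE-II match differed from ethanol by -0.21 to 0.13 at 100 nM, with a median of -0.06. The 9 with a window and neither element differed by -0.43 to 0.27, with a median of 0.03. The ends of that wider range are Ern1 and Dnajb9, each with 1 probe set at or above the filter, and nothing about the element is read from it.

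**Figure D4:**
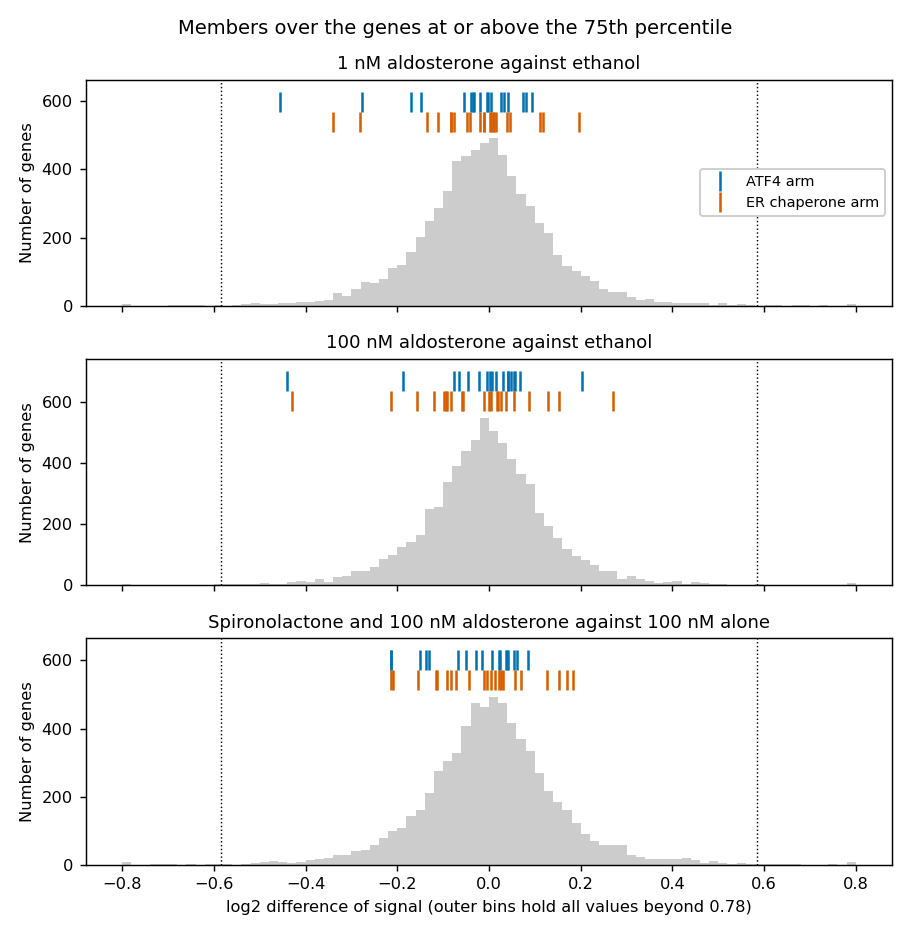
Histograms of the log2 difference of signal over the 6936 genes at or above the 75th percentile (grey bars, number of genes) for 3 pairs of libraries, with a tick for each ATF4 arm gene (blue) and each ER chaperone arm gene (orange); dotted lines mark 1.5-fold. All ticks lie inside the dotted lines, and the outermost at 100 nM against ethanol are Sesn2 at -0.44 and Ern1 at -0.43.

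How far a single probe set can be trusted was read from the 27 members with another probe set at or above the filter. For 100 nM against ethanol the 2 brightest probe sets of a member differed by a median of 0.09, for 1 nM against ethanol by 0.13 and for spironolactone against 100 nM by 0.13. The median size of the members' own differences was 0.06, 0.04 and 0.06. The sign was shared by 10, 13 and 16 of the 27, while over the 5218 genes with such a probe set 52.0%, 54.7% and 54.4% shared it. Most differences printed above are thus no larger than the disagreement between probe sets of a gene.

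Other genes of the pathway came from a longer list. Of 36 more genes of the ATF4 arm (amino acid transporters, further tRNA synthetases and metabolic targets, and the kinases of eIF2) 33 had a probe set and all of these passed the filter. Of 35 more ER genes (translocon, isomerases, degradation and transducers) 34 did. At least 1.5-fold differences numbered 0 of 33 and 0 of 34, in either direction, in each of the 6 pairs. By pair and direction the shares were 1.72% to 2.66% of all genes that passed and 0.115% to 0.317% of the bright ones. Counts of 0 lie near what the shares of the bright genes give, and nothing about the pathway is read from them. The median for 100 nM against ethanol was -0.02 in the first list and 0.00 in the second, and the single differences ran from -0.40 to 0.29 and from -0.45 to 0.27. For spironolactone against 100 nM they ran from -0.44 to 0.33 and from -0.35 to 0.27.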

How the data were processed

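The authors deposited 1 intensity (linear MAS5 signal) per probe set and array, with MAS5 named per the submitters' processing notes. For its version and its present or absent calls, nothing is given in the sources used here. Per the labels' protocols, 250 ng of total RNA went into each biotinylated cRNA. After trimming 2% of probe sets from both ends the mean signal was 500.0 in all 4 libraries, so no further scaling was applied. Of 45101 probe sets 64 were array controls; the platform annotation gave 1 symbol to 34958 and several to 932, which were not used. A gene was represented by its brightest probe set and entered when the mean of its log2 signals reached the median probe set. Differences are those of log2 signal with no pseudocount, computed with Python 3.11.15, numpy 2.4.6 and pandas 2.3.3; the procedure was tested on simulated data. With 1 array per group no test was possible, and precision is limited by how few arrays there are. The number of columns of other samples was 0.

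Members and lists were chosen with earlier results of these data known. Signals in every library are given for members past 1.5-fold in any pair, the 3 highest and 3 lowest of each of 3 pairs, and Atf4, Ddit3, Asns, Xbp1, Hspa5 and Herpud1; Vldlr was added after its values were seen, and other members are given by differences and ranges. The files name no genome build; the promoter sequences are those of RefSeq GRCm38.p6. The alternatives tried were 2 other scalings, log2(signal + 32), a floor, other probe sets, other filters and other folds. One of the promoter matches is counted but not reported here.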

Additional observations from a re-analysis of the deposited data

How the results depend on the processing

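Quantile normalization, scaling on the median of the genes that entered and log2(signal + 32) each left the counts past 1.5-fold as reported. Raising signals to the filter and leaving out the filter could not change these counts. All 40 members passed the filter, and no signal of their brightest probe sets lay below it. Over the 4 rescalings, raised signals included, the arm medians stayed between -0.04 and 0.05. With the other probe set in place of the brightest (27 members), 1 gene was 1.5-fold lower at 1 nM than in ethanol and 1 higher at 100 nM than at 1 nM (Ddit3 in both), and 1 higher with spironolactone than with 100 nM aldosterone (Pdia3), and the arm medians ran from -0.12 to 0.07. Under that choice the Sesn2 difference between spironolactone and ethanol turned to 0.20, and the count for that pair stayed 1 through Pdia6, at -0.62. The count of 1 for that pair became 0 with the median over probe sets, 0 with the filter at the 75th percentile and 0 at 2-fold. With a log2 difference of 0.3219 as the limit the counts of lower genes were 2 at 1 nM, 2 at 100 nM and 2 with spironolactone against ethanol, and 1 with spironolactone against 1 nM; 1 gene was higher at 100 nM than at 1 nM. No paired analysis was possible because each group holds 1 library. Signals near the filter, and members with 1 probe set, are the least certain.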

Other observations

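Among the other pathway genes with a promoter window, 10 of 29 of the ATF4 arm (34.5%) held the C/EBP-ATF element: Atf3, Fgf21, Iars, Jdp2, Nupr1, Pycr1, Slc1a4, Slc7a11, Tars and Yars. In the ER arm, 2 of 29 held ERSE (Derl3 and Ero1b) and 3 of 29 (10.3%) held the XBP1 core (Txndc5, Txndc11 and Ube2j1), which no member held. Slc7a11, the cystine transporter subunit, had 2 C/EBP-ATF matches, and signals of 234 in ethanol, 242 at 1 nM, 181 at 100 nM and 166.5 with spironolactone. Ddit4, an mTORC1 inhibitor that both stress and corticosteroids induce, had signals of 4927.5, 4105, 5120.1 and 3843.5 in the same order; ethanol and 100 nM were the high libraries, as for Wars. Eif2ak4, the amino acid sensor GCN2, had signals of 358, 248 and 328 in ethanol, 1 nM and 100 nM and 355 with spironolactone, lowest at 1 nM by -0.53 against ethanol. These genes were picked after their values were seen.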
